A study of Mus musculus with 8 samples.

Results

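The genes described here carry the symbols of protein components of the cytosolic ribosome, which most of them encode. They were chosen by symbol: *Rpl* or *Rps* followed by a number, or one of the P-stalk names *Rplp0* to *Rplp2*, with at least 10 estimated counts in at least 4 of the 8 libraries. The deposited counts cover 45706 genes, of which 87 had a matching symbol and 81 passed the count minimum, 49 of the large subunit and 32 of the small. The 6 that did not pass were *Rpl10l*, *Rpl39l*, *Rpl3l*, *Rps12l1*, *Rps3a2* and *Rps3a3*, which held between 0 and 14.9 counts in any library. Of the 81 members 79 were annotated as protein coding. *Rpl6l*, with a single exon, was annotated as a processed pseudogene and *Rps4l* as a transcribed processed pseudogene, so the subunit label is a name only for these 2.

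A cytosolic ribosome is built from ribosomal RNA and one copy of most of these proteins in each subunit. The small subunit reads the mRNA and the large subunit joins the amino acids. As a class, mRNAs for ribosomal proteins carry a terminal oligopyrimidine (TOP) motif, a C at the very start followed by a run of pyrimidines. A gene picked by symbol need not carry it. Through the motif mTOR signalling and the protein Larp1 regulate the translation of these mRNAs, and Larp1 also stabilises them. In neurons these mRNAs are present in the soma and also in axons and dendrites.

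RNA was sequenced from cultured mouse hippocampal neurons of C57/Bl6 wild type embryos (embryonic day 18) after 4 hours with melanin-concentrating hormone (MCH, 1 µM), a hypothalamic neuropeptide, or with the vehicle (H2O), in 4 wells each. All 8 libraries were labelled wild type, beside a tag naming Alzheimer's disease as the model. Each treatment had 2 wells in each of 2 separate cultures, collected at 12 to 14 days in vitro. Which replicate came from which culture is not given in the sources used here. Wells of a culture share their source, so the P values measure the spread between these wells, which may in part be technical. The comparisons were MCH with vehicle, and replicates 3 and 4 with replicates 1 and 2. The second split was read from the first principal component of all genes after each treatment's own mean was subtracted (59.8% of the remaining variance). The values of this split therefore describe the libraries, and its P values are not independent of that choice.

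The libraries held 26083933 to 31844842 estimated counts. Summed markers of neurons were 8761 to 9777 CPM (counts scaled to a library size of 1000000) and of microglia 4.57 to 9.37 CPM. Markers of astrocytes were 1148 to 1262 CPM in replicates 1 and 2 and 2501 to 2850 CPM in replicates 3 and 4. On that side 10 of 10 astrocyte markers were higher and 7 of 10 neuronal markers were lower (edgeR, adjusted P under 0.05). Over all genes 18.6% were higher and 16.1% lower. In bulk RNA a smaller number of cells of a type and less RNA per cell cannot be told apart.

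RefSeq transcription starts were in hand for 59 of the 81 members, and the bases around them are shown for members that the results below return to. Windows run 10 bases before to 20 bases from the start, 5′ to 3′ on the gene's strand, on GRCm38.p6. Capitals mark a run of at least 5 pyrimidines that begins with a C at the start or within 5 bases of it. For a gene with several annotated starts, the window shown is that of the start with the longest run.
*Rps6* (chr4:86857348-86857377, minus strand): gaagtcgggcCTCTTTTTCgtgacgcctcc
*Rps27* (chr3:90213629-90213658, minus strand): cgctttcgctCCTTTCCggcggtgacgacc
*Rplp2* (chr7:141447641-141447670, plus strand): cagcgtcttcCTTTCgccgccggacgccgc
*Rps24* (chr14:24490668-24490697, plus strand): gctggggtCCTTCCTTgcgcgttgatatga
*Rps27l* (chr9:66946076-66946105, plus strand): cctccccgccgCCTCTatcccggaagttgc
*Rpl22l1* (chr3:28805498-28805527, plus strand): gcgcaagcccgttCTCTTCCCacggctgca
*Rps12* (chr10:23787190-23787219, minus strand): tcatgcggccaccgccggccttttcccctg
*Rps19* (chr7:24884666-24884695, plus strand): cggtgagtgagggctctgggtcgcggctgt
*Rpl10* (chrX:74270806-74270835, plus strand): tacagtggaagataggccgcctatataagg
The run began at the annotated start in *Rps6*, *Rps27* and *Rplp2*, and up to 5 bases away in *Rps24*, *Rps27l* and *Rpl22l1*. *Rps12*, *Rps19* and *Rpl10* had no run that began within 5 bases of the start, and *Rps12* had a pyrimidine run that began further downstream. These letters say nothing about starts used in these cells.

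Over the 59 members 13 (22.0%) had the run at an annotated start itself, against 3.01% of 27025 genes with a start in the same table. For this share and those below, a gene counted if any of its annotated starts had the feature. With a run allowed to begin within 5 bases of the start, a choice added after seeing the data, the shares were 49.2% and 21.2%. The letters CCGGAAG, the core bound by ETS factors, were found on either strand in the 300-base window (250 before and 50 after the start) of 40.7% of members and 9.93% of all genes. AAGATGG, bound by YY1, was found in 16.9% and 7.28%, and TATAAA in 11.9% and 15.7%. These shares are descriptions of the annotated sequence and were not tested.

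Of the 81 members 62 averaged over 100 CPM, as did 2535 of the 14962 genes tested. Per length, in TPM (transcripts scaled per length to a total of 1000000), the 79 members whose transcripts held the gene's reads had a mean of 1.23 for *Rpl6l* to 2582 for *Rpl41*, which encodes the smallest ribosomal protein. *Rplp1*, a stalk protein, followed at 1966 TPM and *Rps29* at 1911 TPM. The short mRNAs lead this order, and their TPM rests on a fixed 250 bases subtracted from every transcript's length, the same in all libraries. The 2 members without matched transcripts, *Rpl13a* and *Rpl18*, have no TPM here.

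**Figure D1:**
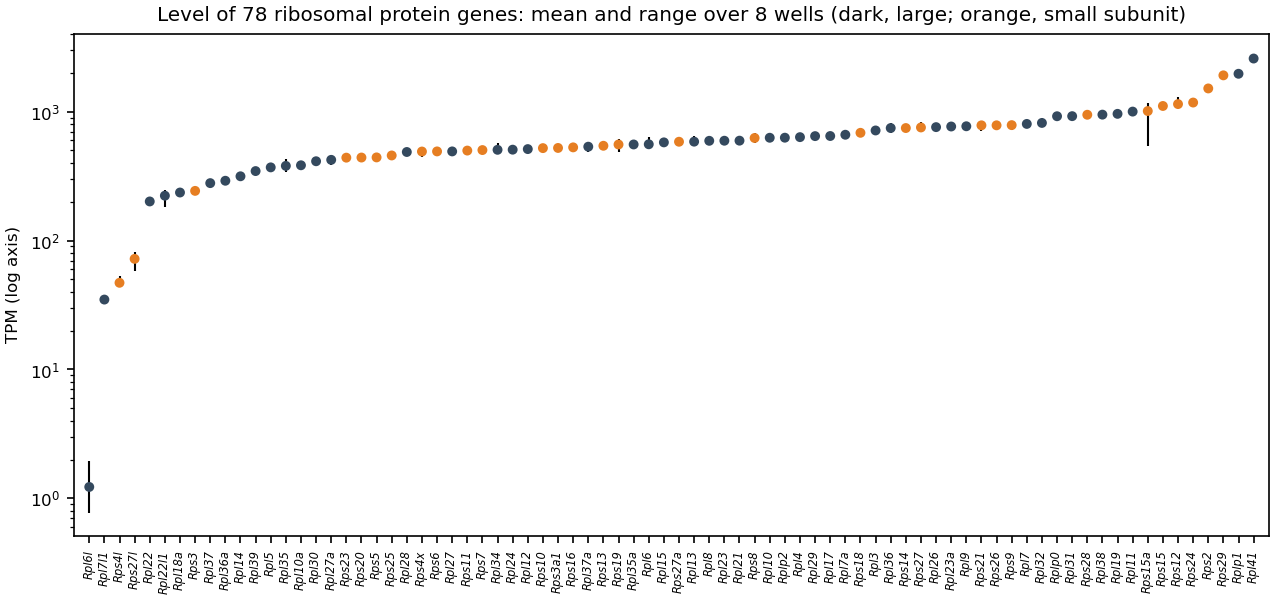
Mean TPM of 78 members on a log axis, with a line from the lowest to the highest of the 8 wells; dark points are large and orange points small subunit genes. *Rpl6l*, *Rpl7l1* and *Rps4l* lie lowest and *Rpl41* highest at 2582 TPM.

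*Rps15a* had 1010.8 TPM on average but 537.5 TPM in vehicle replicate 1, where the 250-base transcript *Rps15a-203* had 47.5 reads against 220.0 to 263.1 in the other wells (a gene named after its values were seen). The gene's counts ran from 3345 to 4133 over the libraries, and much of its TPM rested on the few reads of this short transcript. *Rpl41* ranged from 2389 to 2673 TPM.

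In each library 1.22 to 1.36% of all counts fell on the members. In vehicle wells the share averaged 1.29% ± 0.0463 (SD, n = 4 wells) and in MCH wells 1.26% ± 0.0435 (SD, n = 4 wells), ranges that overlapped. Large subunit genes took more counts than small subunit genes, and the log2 ratio was 0.81 ± 0.0137 with vehicle and 0.81 ± 0.0147 with MCH (SD, n = 4 wells each), a difference smaller than the spread between wells. Between the replicate sides the log2 ratio was 0.81 to 0.83 in replicates 1 and 2 (mean 0.823 ± 0.00856) and 0.79 to 0.80 in replicates 3 and 4 (mean 0.801 ± 0.00388, SD, n = 4 wells each), with no overlap.

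**Figure D2:**
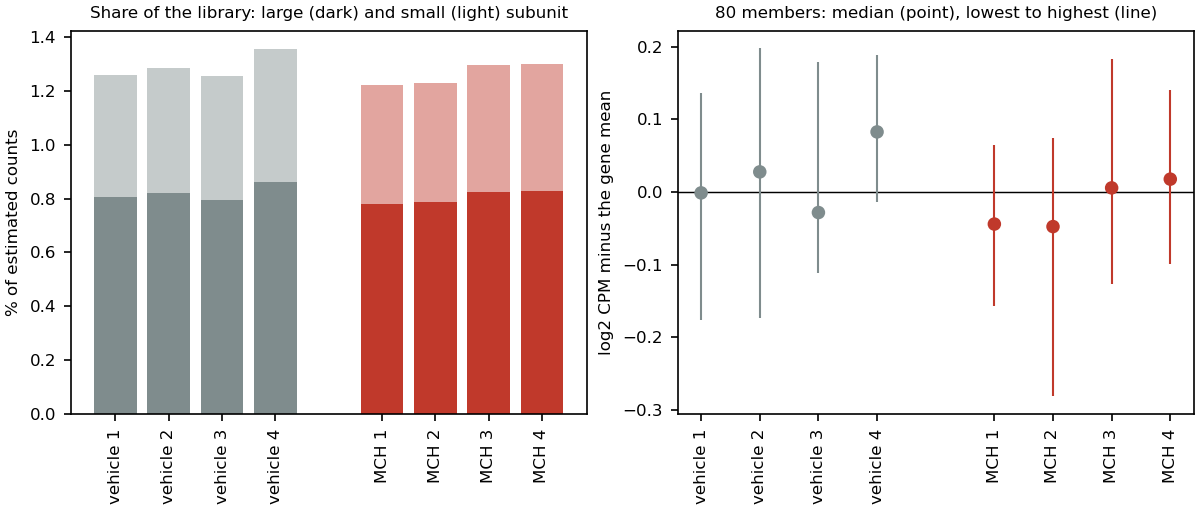
Left, share of estimated counts (percent, bars from 0) on large (dark) and small (light) subunit genes by well; right, median (point) and range (line) over 80 members of log2 CPM minus the gene's mean over 8 wells. Vehicle replicate 4 lies highest in both panels, with a median of 0.083.

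Vehicle replicate 4 carried more of these mRNAs than the other wells. Its median deviation over 80 members (without *Rpl6l*) was 0.083 on the log2 scale, and 78 of the 80 lay above their own mean there. In the other 7 wells the median lay between -0.047 in MCH replicate 2 and 0.028 in vehicle replicate 2.

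None of the 81 members passed the comparison of MCH with vehicle (edgeR, quasi-likelihood, Benjamini–Hochberg adjusted P under 0.05). Over all 14962 genes tested 0.234% (35) passed. Unadjusted, 1 member had a P under 0.05, *Rpl22l1*, as did 8.5% of all genes. With replicate side as a block again 0 of 81 passed, against 4.46% of all genes, and 5 had an unadjusted P under 0.05, against 18.2% of all genes. With replicate number as a block 0 of 81 passed, against 3.98%. The count of 0 also held in DESeq2, limma voom and each other setting. Of the members 72 had a value below 0 and 9 above, where 7637 of all 14962 genes lay below 0. The median log2 fold change was -0.041 over members and -0.003 over all genes. The median deviation of the members from their own means had an SD of 0.041 between wells of a treatment. Members moved together by well, so their directions are not independent of each other. Leaving *Rpl6l* aside, the values ran from -0.14 to 0.035 on the log2 scale and the 95% intervals from -0.323 to 0.219. The treatments did not separate in any member, while they did in 6.03% of all genes.

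**Figure D3:**
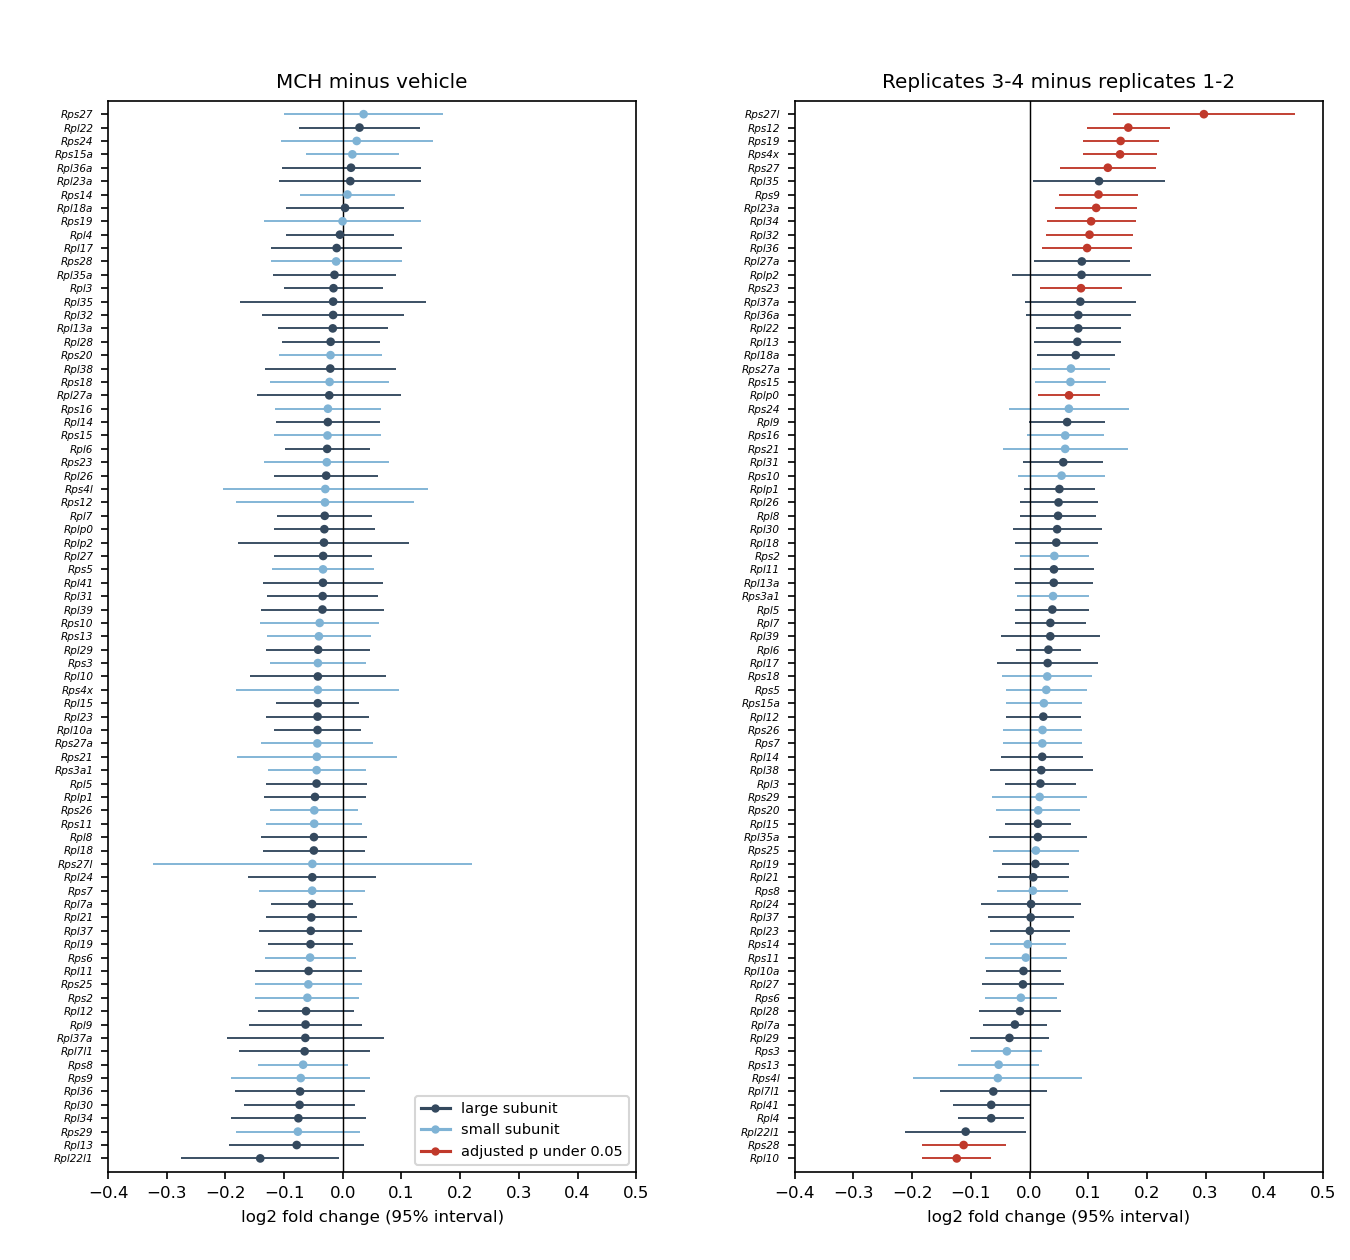
Log2 fold change and 95% interval of 79 members (*Rpl6l* and 1 other are not drawn), for MCH minus vehicle (left) and replicates 3 and 4 minus 1 and 2 (right), each sorted; dark, large subunit; light blue, small subunit; red, adjusted P under 0.05. No member is red on the left and 14 are red on the right.

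The median was -0.035 for the large and -0.042 for the small subunit genes. Vehicle replicate 4 touched it: without that well the median over all members was -0.016, and it was -0.048 without vehicle replicate 3. Within replicates 1 and 2 the median was -0.059 and within replicates 3 and 4 it was -0.018, and none of the members passed a test of the difference between these (0.0267% of all genes did, and 3 members had an unadjusted P under 0.05). Astrocyte markers also moved within the sides. Their median for MCH was -0.33 in replicates 1 and 2, with 4 of 10 lower, where 3.87% of all 14962 genes passed (268 lower). In replicates 3 and 4 it was 0.12, with 0 of 10 passing, where 0.782% of all genes did. Of the astrocyte markers 2 of 10 passed the test of the difference. Their part in the members' values was not tested. Over 14877 genes the MCH log2 fold change rose with transcript length (Spearman coefficient 0.18), and over the 81 members the coefficient was -0.0096. The members' main transcripts had a median length of 677 bases. The part of length in the members' values was not tested.

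The mRNAs for the proteins of the stalk, which recruits elongation factors, stayed close to vehicle. *Rplp0* had 398.5, 403.9, 406.4 and 427.3 CPM with vehicle and 382.2, 396.2, 411.8 and 410.7 CPM after MCH, a log2 fold change of -0.031 (SE 0.0386). *Rplp1* gave -0.047 (SE 0.039) and *Rplp2* -0.032 (SE 0.0649). The wells of the treatments overlapped in all 3.

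*Rpl5* and *Rpl11*, which bind Mdm2 when ribosome assembly is disturbed, gave log2 fold changes of -0.045 (SE 0.0386) and -0.058 (SE 0.0405). *Rpl11* had 146.9 to 161.4 CPM with vehicle and 141.2 to 152.0 CPM with MCH. *Rps6*, the substrate of S6 kinase, had 190.8, 190.3, 179.0 and 192.0 CPM with vehicle and 183.2, 177.4, 182.1 and 180.9 CPM after MCH. The difference was -0.056 on the log2 scale (SE 0.0345, adjusted P = 0.745 in edgeR), and the wells overlapped only through vehicle replicate 3.

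*Rpl22l1*, a paralog whose mRNA the Rpl22 protein is known to repress, had the largest negative value. It had 33.7, 33.6, 28.8 and 32.7 CPM with vehicle and 29.6, 30.6, 28.1 and 28.6 CPM with MCH, -0.14 on the log2 scale (SE 0.06, adjusted P = 0.562 in edgeR). The wells overlapped through vehicle replicate 3. Per length the drop was not present in replicates 1 and 2. There *Rpl22l1* had 228.3 and 220.2 TPM with vehicle and 247.2 and 238.2 TPM with MCH. In replicates 3 and 4 it had 222.9 and 232.3 TPM with vehicle and 181.8 and 211.4 TPM with MCH. *Rpl22* had 91.0 to 97.2 CPM with vehicle and 88.3 to 100.4 CPM with MCH, a log2 fold change of 0.028 (SE 0.0462).

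*Rpl13* and *Rps29* had the next lowest values, -0.078 (SE 0.0513) and -0.077 (SE 0.0471) on the log2 scale. *Rps29* had 157.2, 172.9, 153.1 and 163.5 CPM with vehicle and 149.4, 147.2, 157.4 and 159.5 CPM after MCH, so the wells overlapped. *Rps27* (0.035, SE 0.0604) and the pseudogene *Rpl6l* (0.54, SE 0.324) lay highest. *Rpl6l* rested on 7.53 to 22.7 reads per library, with 0.310 to 0.409 CPM for vehicle and 0.316 to 0.735 CPM for MCH, and 84.4% of its 31-mers occur in other genes. *Rpl3*, a protein near the peptidyl transferase centre, gave -0.016 (SE 0.0376), *Rpl4*, which lines the exit tunnel, -0.0048 (SE 0.0408) and *Rpl41* -0.034 (SE 0.0454). All of these had adjusted P values of 0.723 or more in edgeR.

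*Rps24*, whose short terminal exons are alternatively spliced, had 140.0 to 165.0 CPM with vehicle and 143.6 to 158.3 CPM after MCH, a log2 fold change of 0.024 (SE 0.0578). Nearly all of its reads lay on *Rps24-201*, with 150 ± 11.95 CPM with vehicle and 152 ± 6.66 CPM after MCH (SD, n = 4 wells each). The longer *Rps24-202* had 0.906 ± 0.132 and 0.850 ± 0.345 CPM, and both differences were smaller than the spread between wells.

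Paralogs were compared with their partners as the log2 ratio of CPM in each well. For *Rpl22l1* to *Rpl22* the mean ratio was -1.53 ± 0.13 with vehicle and -1.70 ± 0.11 with MCH (SD, n = 4 wells each), a difference of -0.16 (two-sided exact permutation test, P = 0.114, adjusted over 5 pairs 0.286). The smallest P this design allows is 0.0286. *Rps27l*, a p53-induced paralog of *Rps27*, gave a difference of -0.09 (exact permutation P = 0.4) and *Rpl7l1* to *Rpl7* -0.033 (exact permutation P = 0.571). *Rpl36al* to *Rpl36a* gave -0.087 (exact permutation P = 0.0571, adjusted 0.286), and *Rps4l* to *Rps4x* 0.019 (exact permutation P = 0.8). *Rpl36al* does not match the symbol rule and is given as a partner only.

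**Figure D4:**
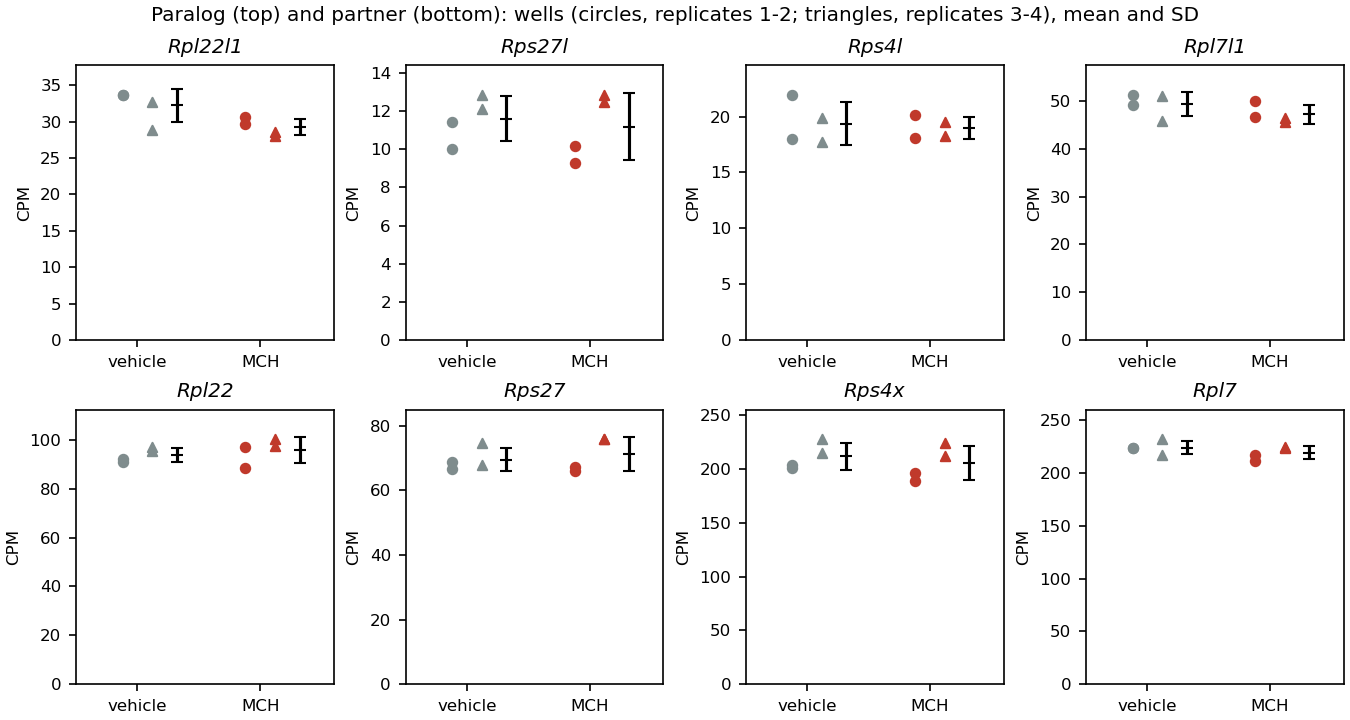
CPM by well (axes from 0) for 4 paralogs (top) and their partners (bottom); grey vehicle, red MCH, circles replicates 1 and 2, triangles replicates 3 and 4, bar mean and SD over 4 wells. *Rps27l* lies higher in replicates 3 and 4 in both treatments; *Rpl22l1* overlaps between treatments through 1 vehicle well.

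Per length the paralogs did not all lie below their partners. *Rpl22l1* had a mean of 223 TPM and *Rpl22* 201 TPM, and their ranges over wells (181.8 to 247.2 and 190.2 to 207.6 TPM) overlapped. Their main transcripts have 552 and 2048 bases, so the fixed 250 bases subtracted from each length raise the TPM of *Rpl22l1* more. *Rps27l* had 72.1 TPM against 754 TPM for *Rps27*, and *Rpl7l1* 34.9 TPM against 803 TPM for *Rpl7*. *Rps4l* had 47.0 TPM against 490 TPM for *Rps4x*. Of the reads of *Rpl22l1* 33.7 to 51.1% per library lay on transcripts annotated as noncoding, and of those of *Rpl22* 24.8 to 31.3%. These reads are part of the TPM of both genes. The coding *Rpl22l1-201* had 16.3 ± 1.51 CPM with vehicle and 14.5 ± 2.80 CPM after MCH, and the processed transcript *Rpl22l1-202* 9.92 ± 1.46 and 9.32 ± 1.99 CPM (SD, n = 4 wells each).

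Between the replicate sides 15 of the 81 members (18.5%) passed the test, 13 higher and 2 lower in replicates 3 and 4, where 34.7% of all genes passed (18.6% higher and 16.1% lower). Of the large subunit genes 6 of 49 passed and of the small 9 of 32. The sides did not overlap in 9 members, 7 above and 2 below, against 29.6% of all genes (16.6% above and 13.0% below). The median was 0.035 over members and -0.005 over all genes, and with 1 well left out it lay between 0.012 and 0.057 over members.

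*Rps27l* had the largest value. It had 11.46 and 10.04 CPM with vehicle and 10.16 and 9.31 CPM with MCH in replicates 1 and 2, and 12.83, 12.11, 12.87 and 12.46 CPM in the same order in replicates 3 and 4, with no overlap (0.30 on the log2 scale, SE 0.0743, adjusted P = 0.00374). *Rps12*, a small subunit protein, averaged 143 ± 1.63 CPM and 161 ± 8.37 CPM (SD, n = 4 wells each; 0.17, SE 0.0338, adjusted P = 0.000576 in edgeR). *Rps19*, mutated in Diamond–Blackfan anaemia, averaged 103 ± 1.71 and 114 ± 2.36 CPM (0.16, SE 0.0309, adjusted P = 0.000531 in edgeR).

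*Rps4x*, on the X chromosome, averaged 197 ± 6.44 and 220 ± 7.51 CPM (0.15, SE 0.0304, adjusted P = 0.000471 in edgeR). *Rpl10*, also X-linked and added late to the large subunit, moved the other way, with 222.7 to 233.9 CPM in replicates 1 and 2 and 202.6 to 217.7 CPM in replicates 3 and 4 (-0.12, SE 0.0281, adjusted P = 0.00167 in edgeR). *Rps28* fell too (-0.11, SE 0.0342, adjusted P = 0.0146 in edgeR). *Rpl10*, *Rps12*, *Rps19*, *Rps27l* and *Rps4x* passed in each of the 8 fits that left out 1 well. The others that passed included *Rps27*, *Rps9*, *Rpl23a*, *Rpl34*, *Rpl32*, *Rpl36*, *Rps23* and *Rplp0*, with values of 0.067 to 0.133 for those named. Among the lowest members *Rpl22l1* (-0.11, SE 0.0495), *Rpl4* (-0.065, SE 0.027) and *Rpl6l* (-0.18, SE 0.334) did not pass. The count of 15 depended on single wells. It was 27 without vehicle replicate 3, 5 without MCH replicate 3, 9 without vehicle replicate 1 and 9 without MCH replicate 2. Without vehicle replicate 4 there were 5 higher and 5 lower, so the excess of higher calls was not present. Astrocyte, fibroblast and dividing-cell markers moved with the same split (10 of 10, 8 of 8 and 8 of 9 higher). Of oligodendrocyte lineage and microglia markers 4 of 6 and 2 of 4 were higher. Of neuronal and inhibitory neuron markers 7 of 10 and 6 of 7 were lower. Over all genes 18.6% were higher and 16.1% lower. The part of these markers in the members' values was not tested.

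**Figure D5:**
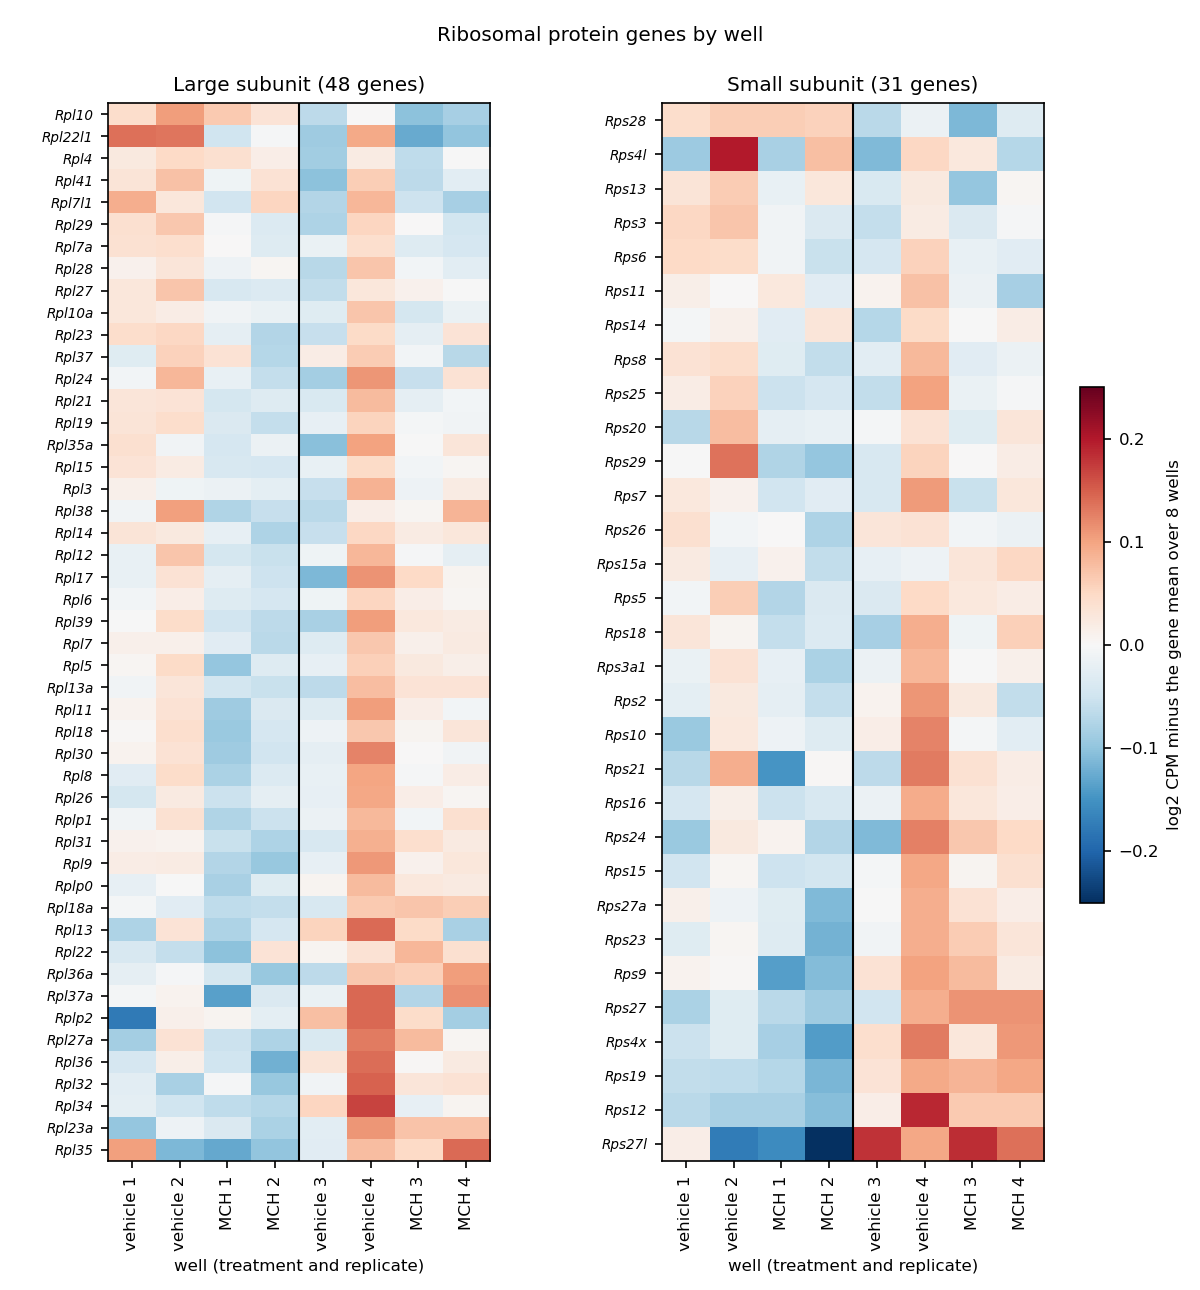
Log2 CPM minus the gene mean for 48 large and 31 small subunit genes (*Rpl6l* and 1 other are not drawn) in the 8 wells, sorted by the difference between sides; the black line parts replicates 1 and 2 from 3 and 4, and the colour scale is cut at 0.25 either way. *Rps27l* and *Rps12* run from blue to red across the line, *Rpl10* the other way, and vehicle replicate 4 is red in most rows.

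The spread between wells was smaller in these genes than over all genes and close to that of genes over 100 CPM. The median biological coefficient of variation was 5.61% for members, 9.53% for all genes and 5.98% for the 2535 genes over 100 CPM, and with the side in the model it was 3.60%, 4.92% and 3.50%.

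Among 231 transcripts of 79 members none passed for MCH (0 of 33527 transcripts did; 2 of the members' had an unadjusted P under 0.05). Between sides 1 rose, *Rps4x-201* (0.16 on the log2 scale, adjusted P = 0.0451 in edgeR), and 1 fell, *Rpl28-202* (-0.25, adjusted P = 0.0397 in edgeR), where 5.22% of all transcripts passed. For 21 members over 10% of reads lay on transcripts annotated as noncoding, among them the pseudogenes *Rpl6l* and *Rps4l*, which have no coding transcript. The highest mean among protein-coding members was that of *Rpl35*, where the share was 86.81 to 91.97% (named after its values were seen).

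Other ribosomal protein genes, whose symbols the rule missed, were counted apart. Of 7 such genes, among them *Fau*, *Rack1* and *Rpl36al*, 0 passed for MCH, and *Rpsa*, a small subunit protein also known as a laminin receptor, was the 1 that rose between sides (455.0 to 494.3 CPM on average, 0.12, SE 0.0275, adjusted P = 0.00185 in edgeR). Of 16 elongation factors and other TOP mRNAs 3 rose and 2 fell between sides, where 34.7% of all genes passed, and 0 passed for MCH. *Vim*, an intermediate filament of glia and progenitors, rose from 65.3 to 168 CPM on average, while *Eef1b2* (0.099, adjusted P = 0.0357 in edgeR) and *Tpt1* (0.098, adjusted P = 0.00323 in edgeR) also rose.

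Over all genes 18.6% rose and 16.1% fell between sides, and the counts of the lists here are to be read beside that. Of 25 initiation factors 10 fell and 0 rose, among them *Eif3c* (-0.27, adjusted P = 2e-06 in edgeR), *Eif6*, which keeps the subunits apart (-0.20, adjusted P = 0.00374 in edgeR), and *Eif3g* (-0.19, SE 0.0386). Of 45 ribosome biogenesis genes 12 fell and 1 rose, and of 78 mitochondrial ribosomal protein genes 8 fell and 1 rose, a smaller share falling than over all genes. *Polr1e*, of RNA polymerase I, gave -0.29 (SE 0.0849), *Nop14* -0.23 (SE 0.0449) and *Mrpl32* -0.20 (SE 0.062), while *Mrps6* was the mitochondrial gene that rose (0.43, SE 0.0474). For MCH without a block none of the genes of these lists passed, and with replicate side as a block 2 initiation factors, 4 biogenesis genes and 1 mitochondrial gene fell, where 4.46% of all genes passed. Without a block 18 of 25 initiation factors, 39 of 45 biogenesis genes and 55 of 78 mitochondrial genes had MCH values below 0. Their medians were -0.056, -0.063 and -0.036, while 14 of 21 mTOR pathway genes lay above 0.

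Of 21 genes of the mTOR pathway 3 rose and 7 fell between sides, against 18.6% and 16.1% of all genes. The sestrins, which restrain mTOR, differed among themselves, with *Sesn3* at 0.37 (SE 0.0534) and *Sesn1* at 0.34 (SE 0.0559) higher and *Sesn2* lower (-0.37, SE 0.0377). *Larp1*, the TOP mRNA binding protein, fell from 233.2 to 205.7 CPM on average (-0.18, SE 0.032, adjusted P = 0.000146 in edgeR), named after its value was seen. Of 10 p53 and ribosomal stress genes 4 rose and 2 fell. *Eda2r* gave 1.37 (SE 0.133), *Trp53inp1* 0.67 (SE 0.0509) and *Phlda3* 0.45 (SE 0.0716), all higher in replicates 3 and 4. *Sesn2*, also on this list, and *Cdkn1a* (-0.11, adjusted P = 0.036 in edgeR) were lower, and *Mdm2* (0.045) and *Zmat3* (0.0094) did not pass (*Cdkn1a*, *Mdm2* and *Zmat3* were named after their values were seen). For MCH 0 of 21 and 0 of 10 passed without a block. With replicate side as a block 3 of 21 mTOR genes (1 higher and 2 lower) and 2 of 10 p53 genes (1 higher and 1 lower) passed, where 4.46% of all genes did; *Sesn2* is on both lists.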

How the data were processed

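Poly-A RNA from the 8 wells was sequenced with a stranded kit. The deposited table holds expected counts per gene that the authors made with nf-core/rnaseq 3.0, salmon and tximport on GRCm38 (the submitters' notes name R 4.0.3 and DESeq2 1.13.0). The deposited transcript tables hold expected counts and TPM as the authors' salmon gave them. The annotation release was not given in the sources used here; symbols came from a GRCm38 table (45143 of 45706 genes).

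Counts were rounded and genes with enough reads (edgeR's filter, minimum 10) tested in edgeR 4.0.16 (quasi-likelihood, TMM factors, no block). DESeq2 1.42.0, limma voom 3.58.1, other scalings, blocks and each well left out were alternatives. The tests were tried on simulated counts. Same-numbered wells deviated together (r 0.445 to 0.545), as did wells of one side (0.475 to 0.521). Reads of 52 members could be shared: over 50% of their main transcript's 31-mers occur in other genes (87.7% of member values were not whole), and 258 named pseudogenes held 0.236% as many reads. The members, lists and tests were chosen with earlier results of these data known. Named members were those fixed by role or paralogy plus the extremes of each comparison. Intervals are 95%. Individual values of 2 genes are not reported here; they stay in the fits and counts.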

Additional observations from a re-analysis of the deposited data

Results flagged for a closer look

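*Rps6* stood apart in 1 vehicle well. Vehicle replicate 3 had 179.0 CPM and the other 3 vehicle wells had 190.3 to 192.0 CPM, a gap larger than Dixon's 95% critical value for 4 wells. The test was run 70 times (named members, paralog ratios and shares in each treatment), for which chance gives about 3.5.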

How the results depend on the processing

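The count of 0 members for MCH was the same in all alternatives run, and the median stayed between -0.048 and -0.016 when a well was left out. Blocking on replicate number gave a median of -0.041 with 0 members called, and with replicate side as a block 0 were called. For the *Rpl22l1* to *Rpl22* ratio, with wells paired by replicate number, the exact permutation P was 0.125, the smallest that 4 pairs allow. The labels number the wells but do not state that they are paired. Same-numbered wells had r of 0.445 to 0.545 and other wells of the same side 0.475 to 0.521. Neither block changed any call of a member. The count between sides depended on the setting: 6 with a length offset, 9 in DESeq2 and 9 without the treatment term, against 15, and 5 to 27 with a well left out. The cause was not tested. Without *Rpl6l* and *Rps4l*, a choice added after seeing the data, it was 15. By summed TPM the members held 5.14% of the library, 5.16% ± 0.176 with vehicle and 5.12% ± 0.119 with MCH (SD, n = 4 wells each). By TPM the log2 ratio of large to small subunit was 0.43. That ratio was highest, at 0.479, in vehicle replicate 1, the well with the low *Rps15a* TPM.

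Each direction that turned was of a value that did not pass in the comparison it belongs to. *Rps19* for MCH was 0.00114 with DESeq2 size factors, 0.00434 with TMM without the members, 0.0338 with a length offset, 0.00512 with no filter and 0.00205 with pseudogenes added. *Rpl4* was 0.000156, 0.00153 and 0.00182 with TMM without the members, the offset and no filter. *Rpl22* was -0.038 with the offset and *Rpl36a* -0.012 with pseudogenes added. With a well left out the MCH values ranged from -0.032 to 0.015 for *Rpl3*, -0.013 to 0.051 for *Rpl36a*, -0.028 to 0.023 for *Rpl4*, -0.085 to 0.016 for *Rplp2*, -0.057 to 0.035 for *Rps12*, -0.027 to 0.040 for *Rps19*, -0.0032 to 0.076 for *Rps24*, -0.12 to 0.030 for *Rps27l*, -0.031 to 0.030 for *Rps28*, -0.065 to 0.041 for *Rps4l* and -0.081 to 0.00016 for *Rps4x*, and the ratio of *Rps4l* to *Rps4x* from -0.049 to 0.097. The other ratios kept their sign, from -0.22 to -0.12 for *Rpl22l1* to *Rpl22*, -0.15 to -0.032 for *Rps27l* to *Rps27*, -0.079 to -0.0037 for *Rpl7l1* to *Rpl7* and -0.11 to -0.051 for *Rpl36al* to *Rpl36a*. Between sides they ranged from -0.019 to 0.043 for *Rpl3*, -0.33 to 0.062 for *Rpl6l*, -0.0087 to 0.055 for *Rps29*, -0.11 to 0.0070 for *Rps4l* and -0.040 to 0.0047 for *Rps6*. Of 441 values of single members under other settings 420 kept direction and side of the threshold, as did 364 of 416 with a well left out. With a pyrimidine run allowed within 5 bases of the start, a choice added after seeing the data, the members' share moved from 22.0 to 49.2%.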
